A study of Zea mays with 57 samples.

Results

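The 6 glutamine synthetase genes of maize (Zea mays) were followed in seedling shoots over the course of a transfer to nitrogen. The set holds the plastid gene Zm00001d026501 and the cytosolic genes Zm00001d017958, Zm00001d051804, Zm00001d033747, Zm00001d028260 and Zm00001d048050, chosen by gene identifier, and all 6 are present among the 46335 gene models of the count table. All 6 passed the filter on low counts, which kept 18412 genes. Every library came from inbred line B73, from shoots of 10-day-old seedlings that had been without nitrogen for 2 days. All libraries carried the same entry of 2 h after lights on. Nitrogen medium held KNO3 and NH4NO3, each at 20 mM, with 10% of the nitrogen as 15N. KCl medium, which held KCl at 20 mM, was the control at each of 9 times, 5, 10, 15 and 20 min, then 30, 45 and 60 min, and lastly 90 and 120 min after transfer, and 3 libraries were made at 0 min, called the start. Each of the 19 groups had 3 libraries, and each library was a pool of 3 seedlings. Supplying nitrate and ammonium together, the nitrogen medium does not tell their contributions apart. By the concentrations given, the media also differed in added chloride and in the total of these salts. The design does not tell these apart from nitrogen.

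Glutamine synthetase joins ammonium to glutamate to make glutamine, the step by which plants bring inorganic nitrogen into amino acids. In leaves the plastid enzyme takes up ammonium made by nitrite reduction and photorespiration, and the cytosolic enzymes, encoded by a small gene family, take part in primary assimilation, in recycling of ammonium and in the supply of glutamine for transport. Glutamate synthase then transfers the amide group of glutamine to 2-oxoglutarate, which closes the cycle. The terms plastid and cytosolic come with the definition of the set. Neither the deposited files nor the gene table used here annotates these identifiers, so the compartments were not checked against sequence. A RefSeq gene table of the B73 NAM-5.0 assembly lists 6 genes with glutamine synthetase synonyms, on the same chromosomes as the 6 genes studied here (2 on chromosome 1 and 1 each on chromosomes 4, 5, 9 and 10), but it does not pair them with these identifiers. For the same reason no other gene of the pathway is named below.

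In the AGPv4 coordinates of the count table, the plastid gene Zm00001d026501 lies on chromosome 10 from 147240629 to 147249381 on the minus strand, with 5988 bases of exon. Among the cytosolic genes, Zm00001d017958 lies on chromosome 5 from 210867625 to 210871221 (minus strand, 1961 bases of exon). Zm00001d051804 lies on chromosome 4 from 170036696 to 170039992 (minus strand, 1594 bases of exon). Chromosome 1 holds both Zm00001d028260, from 28169233 to 28171917 (minus strand, 1494 bases of exon), and Zm00001d033747, from 272704775 to 272707957 (minus strand, 1760 bases of exon). Zm00001d048050 lies on chromosome 9 from 148903155 to 148910943 on the plus strand, with 1533 bases of exon. No gene model overlapped any of the 6. Counting did not use strand, and the nearest other model was 169 bases from Zm00001d033747, 197 bases from Zm00001d048050 and 240 bases from Zm00001d026501, so reads running past a neighbour's end would not be told apart there. Reads that match more than 1 member of the family equally well could also be split or lost, and their treatment was not given in the sources used here.

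Each value is a count of 3' end tags, collapsed by unique molecular identifier, so a transcript gives about the same number of tags whatever its length. Levels are given as counts per 1000000 (CPM) after TMM scaling. Total counts had a median of 2779326 in nitrogen medium, 2006288 in KCl medium and 2831294 at the start, so the nitrogen libraries were on average deeper than the KCl libraries. Replicate 3 of nitrogen medium at 120 min held only 8560 counts, against at least 1057488 in every other library. It stayed in the fitted model, where its low depth gives it little weight, and it was left out of all means, ranges and plots, which therefore rest on 26 nitrogen libraries, 2 of them at 120 min. Without it, the direction and call of every difference between media quoted below were kept, except for Zm00001d033747 as stated there. Replicates were separate pools. In bulk shoot tissue, fewer cells of a type and less RNA per cell cannot be told apart.

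The plastid gene had the highest tag level and a cytosolic gene the lowest. Averaged over all times, Zm00001d026501 stood at 399.9 ± 62.4 CPM in nitrogen medium and 401.1 ± 47.6 CPM in KCl medium, against 375.6 ± 15.6 CPM at the start (SD, n = 26, 27 and 3 libraries). Zm00001d017958 followed with 302.6 ± 58.1 CPM in nitrogen medium, 232.1 ± 31.96 CPM in KCl medium and 283.3 ± 69.4 CPM at the start. Zm00001d051804 had 205.2 ± 49.8 CPM in nitrogen medium, 172.4 ± 41.7 CPM in KCl medium and 185.0 ± 10.1 CPM at the start. These 3 genes carried most of the family's tags. Zm00001d033747 was lower, at 76.4 ± 21.9 CPM in nitrogen medium, 64.8 ± 13.7 CPM in KCl medium and 80.1 ± 8.45 CPM at the start. Zm00001d028260 had 40.7 ± 10.7 CPM in nitrogen medium, 28.7 ± 5.8 CPM in KCl medium and 30.2 ± 7.29 CPM at the start. Zm00001d048050 was near the limit of these libraries, with 4.33 ± 1.64 CPM in nitrogen medium, 4.38 ± 1.62 CPM in KCl medium and 5.00 ± 1.19 CPM at the start, a median of 10.5 counts per library. The complete order of the 6 tag levels was the same in 49 of 56 libraries. Division by exon length does not suit 3' end tags, whose number depends little on transcript length, and it lowers genes with long exons. It is given here for description only. Divided by exon length, the order at the top changed, since the plastid model has by far the longest exons of the 6: Zm00001d017958 had the highest CPM per 1000 bases in 43 of 56 libraries and Zm00001d051804 in the other 13, with means over all libraries of 136.4 and 118.1, against 66.7 for Zm00001d026501, 40.3 for Zm00001d033747, 23 for Zm00001d028260 and 2.87 for Zm00001d048050.

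**Figure D1:**
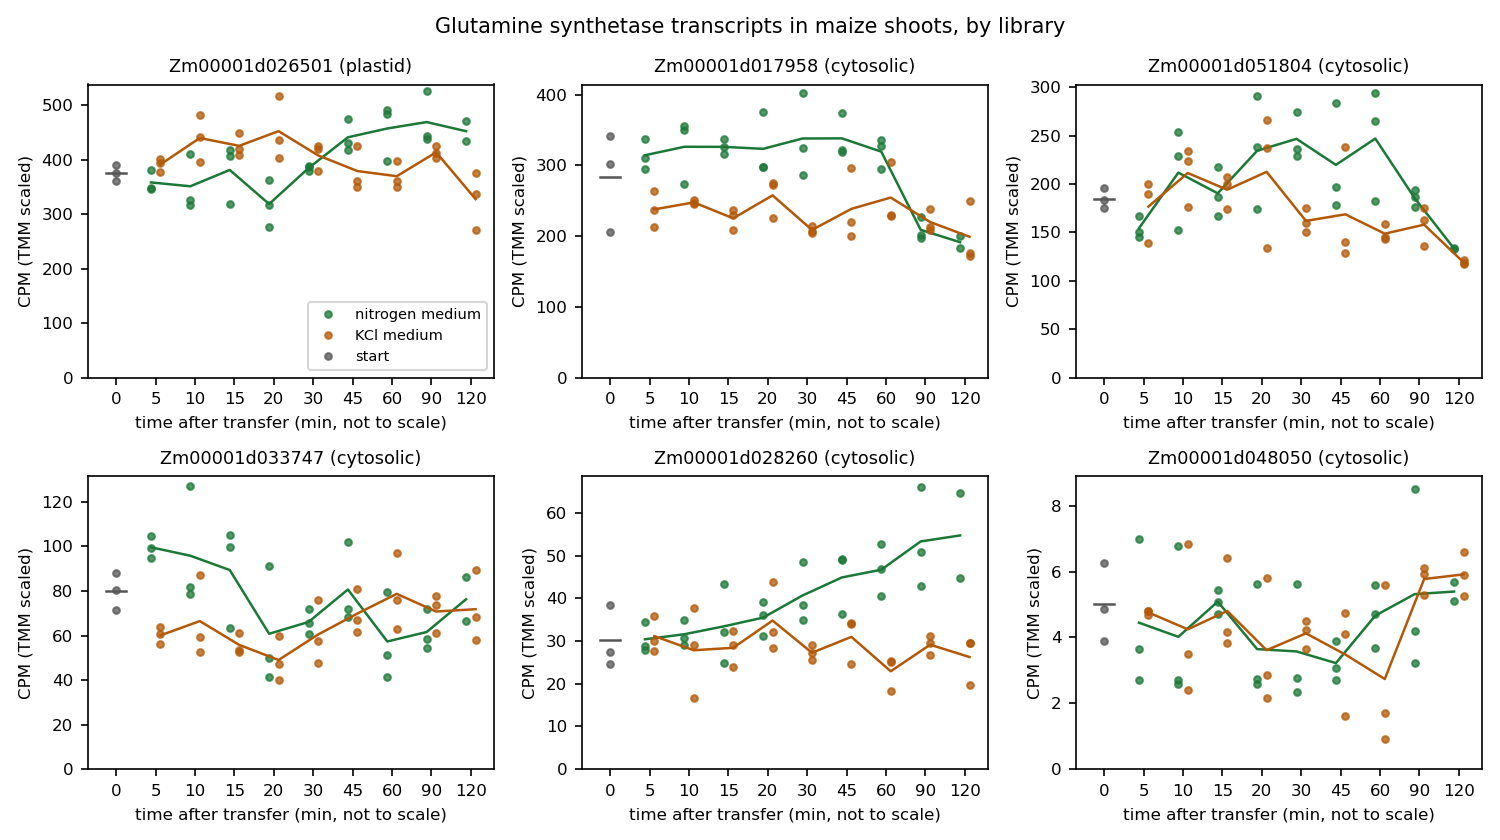
TMM-scaled CPM of each of the 6 genes (vertical axes start at 0) against minutes after transfer, with 1 point per library in nitrogen medium, KCl medium and at the start, and lines through the group means. The 2 courses cross between 30 and 45 min for Zm00001d026501, meet at 90 and 120 min for Zm00001d017958, and separate from 30 min on for Zm00001d028260.

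Nitrogen medium was compared with KCl medium at matched times, to ask which glutamine synthetase transcripts differ between the media and when. Averaged over the 9 times, 4 of the 6 genes were higher in nitrogen medium and 2 did not pass the test (edgeR quasi-likelihood F test, Benjamini-Hochberg adjusted p under 0.05 over all genes tested). Of all genes tested, 58.8% passed this test and 29.9% were higher in nitrogen medium, so the contrast separates many genes. The median log2 difference was 0.22 for the 6 genes and 0.0138 for all genes tested, where higher and lower genes offset each other. Taken without sign, the median over all genes tested was 0.228, so the size of 0.22 is not particular to these 6 genes. All of the genes called were cytosolic. The 9 differences tested jointly called 5 of the 6 genes, against 46.9% of all genes, and the plastid gene was among these 5. The average over time is therefore an incomplete description, and late times (45 to 120 min) and early times (5 to 30 min) are given apart. These 2 means were added after the data had been seen.

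The plastid gene Zm00001d026501 was higher in nitrogen medium at late times and lower at early times. At 20 min its level was 276.6, 363.3 and 316.7 CPM in nitrogen medium, against 404.0, 437.1 and 517.3 CPM in KCl medium. At 60 min it was 483.4, 398.7 and 491.1 CPM in nitrogen medium, against 351.0, 360.7 and 398.2 CPM in KCl medium. At 120 min the nitrogen libraries held 470.8 and 434.5 CPM, against 336.5, 376.0 and 271.4 CPM in the KCl libraries. All nitrogen libraries were thus below all KCl libraries at 20 min, and all were above them at 60, 90 and 120 min, by a narrow margin at 60 min. The mean log2 difference over the late times was 0.28 (SE 0.0677, adjusted p = 0.000943 by edgeR) and that over the early times -0.24 (SE 0.0592, adjusted p = 0.000642 by edgeR). Late minus early was 0.52 (SE 0.0899, adjusted p = 0.000293 by edgeR). The fitted difference was below 0 at all 5 early times and above 0 at all 4 late times, a sequence of signs that 22 of the 18412 genes tested (0.119%) shared. That sequence was taken from this gene's own values, and any given sequence of signs is rare, so the share is a description only. By itself only the value at 20 min passed the test, and those at 5 min (-0.13, SE 0.131) and 30 min (-0.09, SE 0.133) were within about 1 SE of 0. The late and early values being opposite in sign, the mean over 9 times was -0.01 (SE 0.0446, adjusted p = 0.855 by edgeR). With the log2 library total as a covariate, without the library of 8560 counts, that mean was 0.0141 (adjusted p = 0.812). In the authors' quantile-normalized table the mean over 9 times was -0.0934 with an adjusted p of 0.037 by limma. That table holds 55 libraries and lacks replicate 3 of both media at 120 min. Its results therefore differ from the main fit in libraries as well as in method.

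Zm00001d017958, the most abundant cytosolic gene in tags, was higher in nitrogen medium early and did not differ by the test at the end of the course. At 15 min its level was 316.2, 336.7 and 325.6 CPM in nitrogen medium, against 229.8, 208.7 and 237.1 CPM in KCl medium. At 30 min it was 324.6, 286.7 and 402.8 CPM in nitrogen medium, against 207.6, 204.2 and 214.3 CPM in KCl medium. At 90 min it was 201.6, 227.6 and 197.7 CPM in nitrogen medium, against 238.1, 212.9 and 208.7 CPM in KCl medium. The libraries did not overlap, with nitrogen higher, at each time from 5 to 45 min, and they overlapped from 60 min on. The log2 difference was 0.34 over all times (SE 0.0505, adjusted p = 1.59e-07 by edgeR), 0.17 over the late times (SE 0.0773, adjusted p = 0.0821 by edgeR) and 0.47 over the early times (SE 0.0668, adjusted p = 8.78e-08 by edgeR). The late minus early change of -0.30 (SE 0.102) did not pass the test (adjusted p = 0.14 by edgeR), so a smaller difference at late times is not shown by it. The late mean passed the test without replicate 3 of KCl medium at 120 min (0.209, adjusted p = 0.0258 by edgeR), without replicate 1 of KCl medium at 45 min (0.204, adjusted p = 0.0312) and without replicate 1 of KCl medium at 60 min (0.197, adjusted p = 0.0428).

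Zm00001d051804, the next most abundant cytosolic gene, was higher in nitrogen medium over the late times, with calls at 30 and 60 min. At 30 min its level was 229.2, 236.5 and 274.3 CPM in nitrogen medium, against 159.7, 175.7 and 150.4 CPM in KCl medium. At 60 min it was 294.0, 264.8 and 182.2 CPM in nitrogen medium, against 158.5, 142.8 and 144.8 CPM in KCl medium. At 5 min it was 167.1, 150.6 and 145.0 CPM in nitrogen medium, against 200.4, 190.2 and 139.5 CPM in KCl medium. The libraries overlapped at 5, 10, 15, 20 and 45 min, and the nitrogen libraries were all higher at 30, 60, 90 and 120 min. Over all times the log2 difference was 0.22 (SE 0.0675, adjusted p = 0.00403 by edgeR), with 0.37 late (SE 0.104, adjusted p = 0.00359) and 0.10 early (SE 0.0887, adjusted p = 0.338). Late minus early was 0.27 (SE 0.137) and did not pass the test (adjusted p = 0.413 by edgeR). Library totals differed between the media, and with the log2 library total as a covariate, without the library of 8560 counts, the difference over all times was 0.131 (adjusted p = 0.129 by edgeR) and that over the late times 0.232 (adjusted p = 0.103). The part of depth in the difference of this gene was not tested further.

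Zm00001d033747 was higher in nitrogen medium at early times, while its late mean did not pass the test. At 5 min its level was 94.7, 104.9 and 99.3 CPM in nitrogen medium, against 60.55, 55.98 and 63.66 CPM in KCl medium. At 15 min it was 105.0, 63.4 and 99.9 CPM in nitrogen medium, against 61.4, 53.4 and 52.7 CPM in KCl medium. At 60 min it was 41.3, 79.5 and 51.2 CPM in nitrogen medium, against 97.0, 76.0 and 63.1 CPM in KCl medium. The groups were well apart at 5 min, just apart at 15 min and overlapping at the other 7 times. The log2 difference was -0.10 over the late times (SE 0.118, adjusted p = 0.537 by edgeR) and 0.47 over the early times (SE 0.103, adjusted p = 0.000165), and 0.22 over all times (SE 0.0773, adjusted p = 0.0145). The late minus early change was -0.56 (SE 0.156) with an adjusted p of 0.0494 by edgeR, at the edge of the threshold. It did not pass in 49 of 68 alternative fits, 41 of them fits that each left out 1 library, with a highest adjusted p of 0.12, and without the library of 8560 counts it was -0.56 with an adjusted p of 0.0593. The difference over all times did not pass without replicate 1 of nitrogen medium at 120 min (0.181, adjusted p = 0.0513) or without replicate 2 of nitrogen medium at 20 min (0.162, adjusted p = 0.0524). It also did not pass in DESeq2 (0.185, adjusted p = 0.0508), nor with a covariate for within-group variation that the library of 8560 counts dominated (0.148, adjusted p = 0.478).

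Zm00001d028260, a cytosolic gene of lower abundance, showed the largest differences between the media of the 6 genes, and these came late. At 5 min its level was 27.9, 34.4 and 28.8 CPM in nitrogen medium, against 27.6, 30.1 and 35.8 CPM in KCl medium. At 60 min it was 52.8, 46.8 and 40.5 CPM in nitrogen medium, against 18.3, 25.3 and 25.1 CPM in KCl medium. At 90 min it was 42.96, 66.14 and 50.82 CPM in nitrogen medium, against 31.1, 29.6 and 26.7 CPM in KCl medium. The nitrogen libraries overlapped the KCl libraries through 20 min and were all above them at each of the 5 times from 30 min on. Fitted log2 differences of 1.06 at 60 min (SE 0.239, adjusted p = 0.00128 by edgeR) and 1.06 at 120 min (SE 0.221, adjusted p = 0.00433) correspond to 2.09-fold higher levels at both times. Over the late times the difference was 0.88 (SE 0.111, adjusted p = 1.88e-08 by edgeR) or 1.84-fold, over the early times 0.18 (SE 0.0964, adjusted p = 0.113), and over all times 0.49 (SE 0.073, adjusted p = 1.06e-07) or 1.41-fold. Late minus early was 0.70 (SE 0.148, adjusted p = 0.00464 by edgeR). At 120 min, without replicate 1 of nitrogen medium, the difference was 0.726 with an adjusted p of 0.313, and at 90 min, without replicate 2 of nitrogen medium, 0.672 with an adjusted p of 0.0791.

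Zm00001d048050 showed no difference between media that passed a test. Its libraries overlapped at all 9 times. The log2 difference over all times was -0.01 (SE 0.147, adjusted p = 0.968 by edgeR), 0.04 over the late times (SE 0.226) and -0.04 over the early times (SE 0.194). It had 1 to 27 counts in each library other than that of 8560 counts, and at single times its SEs ran from 0.369 to 0.496, so log2 differences at single times of the size called in Zm00001d017958 (0.50 to 0.70) were not detectable in it at this depth.

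Between late and early times, the difference between media changed in 3 of the 6 genes, 2 upward and 1 downward. Of all genes tested, 1.41% passed this test, 0.559% upward and 0.853% downward. The 2 upward genes were the plastid gene Zm00001d026501 and the cytosolic gene Zm00001d028260, and the downward gene was Zm00001d033747, whose call most alternative fits did not keep. By period, 3 of the 6 genes were called at late times, all higher in nitrogen medium, against 39.3% of all genes (18.5% higher). At early times 3 of the 6 were called (2 higher, 1 lower), against 49.6% of all genes (25.8% higher, 23.9% lower). Counted in either direction, the counts for the periods are close to these shares of all genes. The 3 late calls, all higher, exceed the 18.5% of all genes, a difference that was not tested in 6 genes. The 2 lists share only the plastid gene, with opposite signs.

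**Figure D2:**
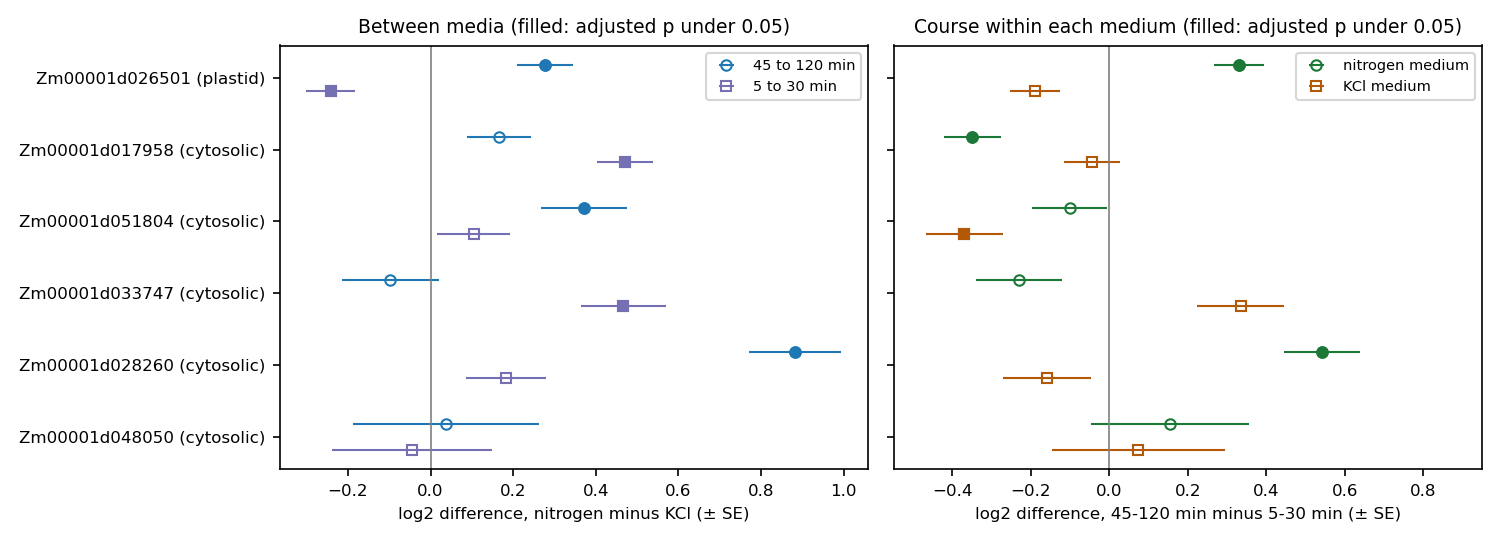
Left, log2 difference of nitrogen minus KCl medium for each gene over 45 to 120 min and over 5 to 30 min; right, log2 difference of late minus early times within nitrogen medium and within KCl medium. Bars are ± SE of the edgeR fit and filled points passed an adjusted p of 0.05; Zm00001d026501 lies at 0.28 late and -0.24 early, and Zm00001d028260 at 0.88 late and 0.18 early.

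At the level of each time, 10 of the 54 pairs of gene and time passed the test, 9 higher and 1 lower in nitrogen medium. Of all genes called at a time, the share higher in nitrogen medium ran from 36.5% at 15 min to 52.9% at 10 min. The split of the 10 pairs was not tested against these shares. At 5 min only Zm00001d033747 passed (0.73, adjusted p = 0.0143 by edgeR), against 18% of all genes. None of the 6 passed at 10 min, when 0.277% of all genes did, a share of 51 genes that became 0 to 1178 genes when 1 library of that time was left out. At 10 min 3 of the 6 had an unadjusted p under 0.05 in edgeR, and limma on the authors' normalized table called 0, as did DESeq2 among the 4 genes to which it gave an adjusted p. At 15 min Zm00001d017958 passed (0.54, adjusted p = 0.0182), against 7.67% of all genes. At 20 min only the plastid gene Zm00001d026501 passed, as the 1 lower value (-0.51, adjusted p = 0.00331), against 26.7% of all genes. Among the 6 genes, the most passed at 30 and 60 min. At 30 min Zm00001d017958 (0.70, adjusted p = 0.00168) and Zm00001d051804 (0.61, adjusted p = 0.0338) passed, against 14.3% of all genes. At 45 min Zm00001d017958 passed (0.50, adjusted p = 0.0121), against 23.7% of all genes. At 60 min Zm00001d051804 (0.73, adjusted p = 0.00908) and Zm00001d028260 passed, against 20.6% of all genes. Zm00001d028260 alone passed at 90 min (0.87, adjusted p = 0.00909), against 6.61% of all genes, and at 120 min, against 1.07%. A gene that passed at 1 time and not at the next is not shown by this to differ between these times.

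**Figure D3:**
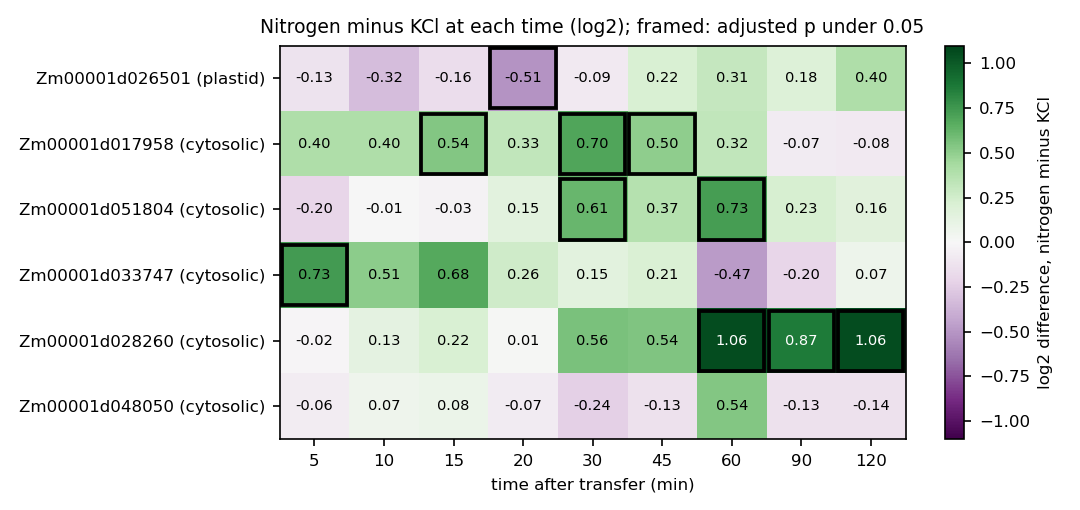
Fitted log2 difference of nitrogen minus KCl medium for each gene (rows) at each time (columns), with green for higher and purple for lower in nitrogen medium and a frame around the 10 values with an adjusted p under 0.05. The framed values are those of Zm00001d033747 at 5 min, Zm00001d017958 at 15, 30 and 45 min, Zm00001d026501 at 20 min (the 1 lower value), Zm00001d051804 at 30 and 60 min, and Zm00001d028260 at 60, 90 and 120 min.

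Of these 10 values, 7 did not pass in at least 1 fit that left out 1 library of their own time, while their log2 differences kept their sign. Zm00001d033747 at 5 min, 0.73 with all libraries, did not pass without replicate 3 of nitrogen medium (0.723, adjusted p = 0.0732 by edgeR) or replicate 2 of KCl medium (0.669, adjusted p = 0.0743). Zm00001d017958 at 15 min, 0.54 with all libraries, did not pass without replicate 2 or 3 of nitrogen medium (0.493 and 0.515, adjusted p = 0.0562 and 0.077) or replicate 1 or 2 of KCl medium (0.536 and 0.462, adjusted p = 0.0574 and 0.119). At 45 min Zm00001d017958, 0.50 with all libraries, did not pass without replicate 2 of nitrogen medium (0.423, adjusted p = 0.0779) or replicate 2 or 3 of KCl medium (0.395 and 0.444, adjusted p = 0.0982 and 0.0629). Zm00001d051804 at 30 min, 0.61 with all libraries, did not pass without replicate 3 of nitrogen medium (0.527, adjusted p = 0.171) or any of the 3 KCl replicates (0.549 to 0.656, adjusted p from 0.053 to 0.116). At 60 min Zm00001d051804, 0.73 with all libraries, did not pass without replicate 1 of nitrogen medium (0.576, adjusted p = 0.0798). The 2 values of Zm00001d028260 at 90 and 120 min are given above. The values of Zm00001d026501 at 20 min, Zm00001d017958 at 30 min and Zm00001d028260 at 60 min passed in each fit that left out 1 library of their own time.

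Without a model, the libraries of the 2 media were also compared by overlap at each time. Nitrogen libraries were all higher than KCl libraries at 6 of 9 times for Zm00001d017958, 5 for Zm00001d028260, 4 for Zm00001d051804, 3 for Zm00001d026501 and 2 for Zm00001d033747, and all lower at 1 time for Zm00001d026501. Of all genes tested, the share with nitrogen libraries all higher was 18.1%, 8.89% and 16.2% at 5, 10 and 15 min, 17.7%, 17.1% and 20.3% at 20, 30 and 45 min, and 16.9%, 14.3% and 12.8% at 60, 90 and 120 min. The share with nitrogen libraries all lower was 18% at 20 min. With 2 nitrogen libraries at 120 min, separation is easier to reach there than at the other times.

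Set against the start, none of the 6 genes passed the test in either medium. Nitrogen medium minus the start, averaged over 9 times, called 0 of the 6 genes by edgeR, against 0.521% of all genes. In that comparison 1 gene, Zm00001d028260, had an unadjusted p under 0.05 (log2 difference 0.43, SE 0.158, adjusted p = 0.244). KCl medium minus the start called 0 of the 6 genes, against 11.2% of all genes, and 1 gene, Zm00001d017958, had an unadjusted p under 0.05 (-0.29, SE 0.108, adjusted p = 0.0702). DESeq2 and limma on the authors' normalized table also called 0 in both comparisons. The normalized table lacks replicate 3 of both media at 120 min. Zm00001d017958 in KCl medium passed without replicate 3 of the start (-0.458, adjusted p = 0.00725), which held 206.4 CPM against 302.0 and 341.4 CPM in the other start libraries, and without replicate 3 of KCl medium at 120 min (-0.302, adjusted p = 0.044). Both comparisons use the same 3 start libraries, and their SEs for the 6 genes, 0.0989 to 0.29, were larger than the 0.0446 to 0.147 of the mean difference between media.

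Within each medium, late times were also compared with early times; here time after transfer and time of day cannot be told apart. In nitrogen medium 3 of the 6 genes changed, 2 up and 1 down, against 6.4% of all genes (2.95% up, 3.45% down). Zm00001d026501 rose by 0.33 (SE 0.0637, adjusted p = 0.00041 by edgeR), with group means of 441.5 to 469.5 CPM late and 318.9 to 384.9 CPM early. Zm00001d028260 rose by 0.54 (SE 0.0974, adjusted p = 0.000127), with group means of 44.9 to 54.7 CPM late and 30.4 to 40.6 CPM early, and its 9 group means were in the order of time. Zm00001d017958 fell by 0.35 (SE 0.0729, adjusted p = 0.00121), with means of 208.9 CPM at 90 min and 191.4 CPM at 120 min after means of 314.3 to 338.2 CPM through 60 min. In KCl medium 1 of the 6 genes changed, downward, against 6.17% of all genes (2.3% down). That gene was Zm00001d051804, which fell by 0.37 (SE 0.0971, adjusted p = 0.0128). In KCl medium the plastid gene Zm00001d026501 had a value of -0.19 (SE 0.0633, adjusted p = 0.0626), which passed without the library of 8560 counts (adjusted p = 0.0304) and without each of 6 other libraries in turn. Zm00001d033747 had 0.34 in KCl medium (SE 0.111, adjusted p = 0.0597), which passed without each of 7 libraries in turn. For Zm00001d026501 and Zm00001d028260 the courses in the 2 media thus differ by the late minus early test given above.

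The plastid gene held a smaller share of the family's tags in nitrogen medium at early times. Summed over the 6 genes, the level was 1029 ± 90 CPM in nitrogen medium and 903.5 ± 93 CPM in KCl medium, against 959.2 ± 69.6 CPM at the start (SD, n = 26, 27 and 3). The plastid gene Zm00001d026501 made up 35.4% ± 3.17 of this sum in nitrogen medium at early times, against 45% ± 2.54 in KCl medium (SD over 15 libraries each). None of the early nitrogen libraries, which ranged from 29.3% to 39.45%, reached the lowest early KCl library, at 40.66%. At late times the share was 43.8% ± 5.44 in nitrogen medium (11 libraries) and 43.8% ± 4.77 in KCl medium (12 libraries). By 120 min it was 49.6% ± 0.867 in nitrogen medium (2 libraries), against 43.8% ± 7.24 in KCl medium (3 libraries). These libraries overlapped, at 48.96% and 50.18% in nitrogen medium and 46.57%, 49.19% and 35.55% in KCl medium. The lower KCl mean rests largely on replicate 3, at 35.55%. Zm00001d017958 made up 25.5% ± 4.29 late and 32.1% ± 2.38 early in nitrogen medium, against 26.6% ± 3.55 late and 24.99% ± 1.65 early in KCl medium. Zm00001d028260, though its difference between media was the largest of the 6, held 4.75% ± 1.02 of the sum late in nitrogen medium, against 3.23% ± 0.707 in KCl medium. Shares of a sum are not independent of each other, and these are given as a description.

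**Figure D4:**
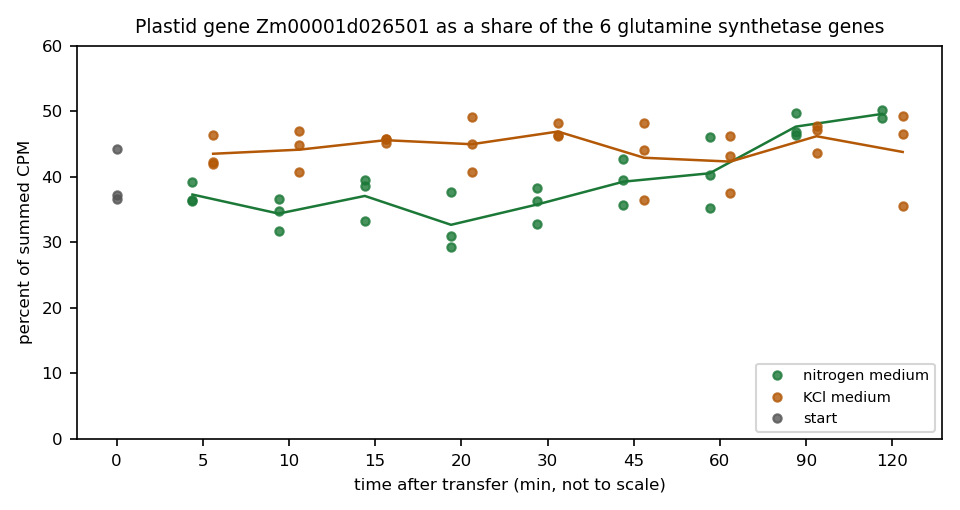
Share of the plastid gene Zm00001d026501 in the summed CPM of the 6 genes (percent, axis from 0 to 60) in each library against minutes after transfer, for nitrogen medium, KCl medium and the start, with lines through the group means. Early nitrogen libraries lie at 29.3% to 39.45%, below all early KCl libraries, and late libraries of the 2 media overlap.

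The 19 groups of each gene were also put in order of level. The gap between neighbouring group means exceeded the larger of their SDs in 2 of 18 pairs for Zm00001d051804 and in 0 of 18 for each of the other 5 genes. Both of these pairs include nitrogen medium at 120 min, with 2 libraries and an SD of 1.31 CPM. With 19 means put in order, small gaps between neighbours arise in any case, so they do not show the groups to be alike. Across the 19 group means on the log2(CPM + 1) scale, Zm00001d017958 and Zm00001d051804 were the most alike of the 15 pairs of members (Pearson r = 0.712, Spearman rho = 0.702). The plastid gene was most like Zm00001d028260 (r = 0.517, rho = 0.467) and least like Zm00001d033747 (r = -0.394, rho = -0.456). These values describe groups that share time points and media.

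The same measure was used to name the genes whose course over the 19 groups was most like each member, among 15404 genes with a mean of at least 5 CPM. For Zm00001d028260 these were Zm00001d034345 (r = 0.935), Zm00001d018161 (r = 0.927) and Zm00001d038718 (r = 0.92). For Zm00001d017958 they were Zm00001d010128 (r = 0.955), Zm00001d012513 (r = 0.951) and Zm00001d043070 (r = 0.95). For Zm00001d051804 they were Zm00001d013468 (r = 0.933), Zm00001d034635 (r = 0.852) and Zm00001d029664 (r = 0.841). The plastid gene Zm00001d026501 was most like Zm00001d039674 (r = 0.839), Zm00001d039086 (r = 0.78) and Zm00001d030892 (r = 0.769), and Zm00001d033747 most like Zm00001d028750 (r = 0.842), Zm00001d036541 (r = 0.842) and Zm00001d015224 (r = 0.835). For the rarest gene, Zm00001d048050, the highest values were those of Zm00001d012361 (r = 0.745), Zm00001d042997 (r = 0.723) and Zm00001d040342 (r = 0.712). By Spearman correlation the order of these names differed: Zm00001d034345 ranked 39th for Zm00001d028260, while Zm00001d013468 ranked highest for Zm00001d051804 on both measures.

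The authors' deposited network table gives a weight for each pair of 203 regulators and 2732 targets. Its making was not given in the sources used here, so its weights are a description. Of the 6 genes, 5 are targets in the authors' deposited table, Zm00001d048050 is not among its targets, and none is a regulator. The plastid gene Zm00001d026501 had the highest top weight of the 5 in the authors' deposited table, 8.23 for Zm00001d040362, followed by 7.39 for Zm00001d015410 and 6.77 for Zm00001d042665. Of all targets in that table, 96.9% had a lower top weight. For Zm00001d017958 the authors' deposited table gave 5.0 for Zm00001d028974, 4.88 for Zm00001d001858 and 3.38 for Zm00001d035439. For Zm00001d051804 the authors' deposited table gave 4.75 for Zm00001d016361, 4.73 for Zm00001d043699 and 4.45 for Zm00001d028603. The same regulators Zm00001d043699 (3.28) and Zm00001d016361 (2.93) stood with Zm00001d016106 (3.27) at the top for Zm00001d033747 in the authors' deposited table. Zm00001d028260 had the lowest top weights of the 5 in the authors' deposited table, 0.89 for Zm00001d011614, 0.688 for Zm00001d048083 and 0.604 for Zm00001d034783. For it, 58.5% of all targets had a lower top weight. The highest weights of the 5 genes fell in the same order as their mean tag levels, and a link between weight and level was not tested. The median over all pairs in the authors' deposited table was 0.0305. Among the regulators in the top 10 of each of the 5 genes, 5 were shared by at least 3 of them, and Zm00001d035651 by 4.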

How the data were processed

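Shoot RNA was sequenced as 3' end libraries with unique molecular identifiers. The authors deposited whole-number gene counts that are not normalized. Tools named in the submitters' processing notes are STAR (2.7.6a), featureCounts (2.0.1), fastp (0.21.0) and UMI-tools (1.1.1). Per the file headers, featureCounts 1.5.1 counted on AGPv4 release 37 without strand. The authors' quantile-normalized table and network weights are used as deposited scores. The normalized table holds 55 libraries, without replicate 3 of either medium at 120 min. Of the count table, 2 columns without a labelled sample were not used.

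The test was edgeR 4.0.16 in R 4.3.3 (TMM, filterByExpr, quasi-likelihood F test, 1 model of 19 group means over 57 libraries, 38 residual degrees of freedom), two-sided, with Benjamini-Hochberg adjustment over 18412 genes; the script was checked on simulated data. An SE is the size of a log2 change over the square root of its F. Alternatives used DESeq2 1.42.0, limma 3.58.1 (pseudocount 1), other scalings, filters and covariates, and each library left out. The members named, the 3 genes most like each (Pearson, mean of at least 5 CPM) and the 3 regulators of highest weight follow a rule set with the design. The members and lists were chosen with earlier results of these data known. Cell type markers could not be matched by identifier, so the tissue label was not checked. Counting intervals were not computed.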

Additional observations from a re-analysis of the deposited data

Results flagged for a closer look

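In 3 of the 6 genes the difference between nitrogen and KCl medium passed the edgeR test of a change between late and early times. Of all genes tested, 1.41% passed it. These 3 genes are listed here for a closer look. For the plastid gene Zm00001d026501 the late minus early change was 0.519 on the log2 scale (adjusted p = 0.000293). For the cytosolic gene Zm00001d028260 it was 0.701 (adjusted p = 0.00464). For the cytosolic gene Zm00001d033747 it was -0.564 (adjusted p = 0.0494), a call that most alternative fits did not keep.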

How the results depend on the processing

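The 27 member values that passed a test kept direction and call in 1238 of their 1326 alternative fits. Most of these fits left out 1 of the 57 libraries and otherwise repeated the main fit, so this count is no measure of robustness by itself. The calls lost at single times are given above. A covariate drawn from within-group variation was dominated by the library of 8560 counts (66.6% of its squared loading). With it, 2 members were called over all times, 0 over the late times, and 1 for late minus early within nitrogen medium. Zm00001d028260 then had -0.204 for late minus early, -0.0225 over the late times, -0.363 within nitrogen medium and -2.57 at 120 min, and Zm00001d048050 had -2.93, -3.00 and -2.86 in the same first 3 contrasts. With that library left out, the covariate left all calls between media in place over all, early and late times. KCl medium minus the start gave 1 called member with library totals as the scaling and 1 with the covariate without that library. Late minus early within KCl medium gave 2 with library totals, with no filter, with the covariate or with that library left out, and 3 with the covariate and that library left out. DESeq2 called 6 of the pairs of gene and time, against 10 with edgeR. The cause of these changes was not tested. The number of all genes called also differed between fits, with ranges given below, so these counts of members are a description. With library totals, KCl medium minus the start called 2125 of all genes, against 2054 in the main fit. Late minus early within KCl medium then called 1140, against 1136 in the main fit.

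Leaving out each library gave 0 to 1 members for KCl medium minus the start and 1 to 2 for late minus early within KCl medium. Signs of values not called also changed. Zm00001d026501 over all times was 0.0141 with library total as a covariate. Zm00001d048050 was 0.0565 over all times and 0.0194 over the early times in the authors' quantile-normalized table, and with each library left out ranged from -0.0895 to 0.118 over all times, -0.183 to 0.0336 early, -0.0948 to 0.339 late, -0.0364 to 0.398 for late minus early and -0.243 to 0.161 within KCl medium. Zm00001d017958 ranged from -0.134 to 0.204 for nitrogen medium minus the start, and Zm00001d028260 from -0.188 to 0.139 for KCl medium minus the start.

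Replicate numbers did not pair the samples: 2 of 26 same-numbered pairs of nitrogen and KCl libraries had r over 0.1, and 16 of 56 libraries were closest to their own number. With the replicate block, the late minus early change of Zm00001d033747 had an adjusted p of 0.0571, and no other call of a member named here changed. Over all alternatives, the genes called at 10 min, 51 with edgeR, ranged from 0 to 1178. In the same way, 3319 at 5 min ranged from 722 to 4584, 1412 at 15 min from 518 to 2474, 4913 at 20 min from 2639 to 5919, 2630 at 30 min from 629 to 3729, 4355 at 45 min from 2552 to 5316, 3795 at 60 min from 2173 to 4712, 1217 at 90 min from 370 to 1850 and 197 at 120 min from 59 to 2221. Late minus early ranged from 123 to 2195 genes around 260, nitrogen medium minus the start from 33 to 2540 around 96, KCl medium minus the start from 436 to 3028 around 2054, late minus early within KCl medium from 606 to 1514 around 1136, and that within nitrogen medium from 559 to 2262 around 1179. Over all times, early and late, no alternative moved the count by 1.5 times.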
